A study of Mus musculus with 26 samples.

Results

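The 10 genes described here mark T cells and natural killer (NK) cells in bulk liver RNA. They were taken by symbol from the deposited count table, 10 of its 55401 genes: 6 T cell surface genes (Cd2, Cd3d, Cd3e, Cd4, Cd8a, Cd8b1) and 4 genes of cytotoxic granules or NK cells (Nkg7, Gzma, Gzmb, Klrb1c). Livers came from male C57BL/6 mice that received a high-fat diet (HFD) from 4 weeks of age, for 18 weeks; the series' design text adds high cholesterol to the diet, and no transgene or deletion is listed. Untreated mice on the diet gave 9 libraries (untreated HFD). Mice on the same diet that were given exosomes, small membrane vesicles, derived from UCMSCs through the tail vein every 72 hours for 8 weeks gave 8 libraries (UCMSC-Exos, numbered 1 to 3 and 5 to 9). The 9 LSCR samples of the series were not analysed here. The labels give the untreated mice no injection. The effect of exosomes therefore cannot be told apart from that of being injected many times, or of a shared cage.

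T cells recognise peptides through a receptor whose signal is passed on by the CD3 chains. CD4 marks helper T cells and binds MHC class II, whereas CD8, a dimer of an alpha and a beta chain, marks cytotoxic T cells and binds MHC class I. Cytotoxic T cells and NK cells kill target cells by releasing granules that hold perforin and granzymes. The mouse liver is known for many NK cells and innate-like T cells, which sit in the sinusoids.

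Libraries held 32.9 to 36.1 M reads assigned to genes. Expression is given as CPM, reads of a gene scaled to the library's total after TMM normalization. All 10 members were detected in each of the 17 libraries and passed the filter on low counts; the lowest value was 9 reads (Klrb1c) and the highest 643 reads (Gzmb). UCMSC-Exos 9 lay with the untreated libraries on the first principal component of all genes (-49.6, against -51.7 to -2.23 in untreated HFD and 30.6 to 63.2 in the other UCMSC-Exos libraries). Untreated HFD 3 held 10237 CPM in summed pancreatic acinar genes, and untreated HFD 9 held 7724 CPM in summed skeletal muscle genes. Results that rest on these 3 libraries are also given without them where that was computed.

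In UCMSC-Exos livers all 6 T cell surface genes had positive log2 fold changes, of which 3 passed the test, and none of the 4 cytotoxic granule and NK genes passed. Cd4 rose by a log2 fold change of 1.62 ± 0.22 (SE), Cd2 by 1.18 ± 0.22 and Cd8b1 by 0.96 ± 0.31. These 3 of 10 members passed an adjusted p of 0.05 in edgeR's quasi-likelihood test, beside 9.73% of the 16238 genes tested that passed as higher in UCMSC-Exos and 20.2% that passed in either direction. No member passed as lower, beside 10.4% of all genes; at an unadjusted p under 0.05 there were 6 members, the T cell surface genes, all higher, and DESeq2 and limma voom called 0 members lower as well. The median log2 fold change was 0.85 over the 6 T cell surface genes and -0.00 over the 4 others, with -0.02 over all genes tested. In bulk RNA, fewer or more cells of a type cannot be told apart from less or more RNA per cell.

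**Figure D1:**
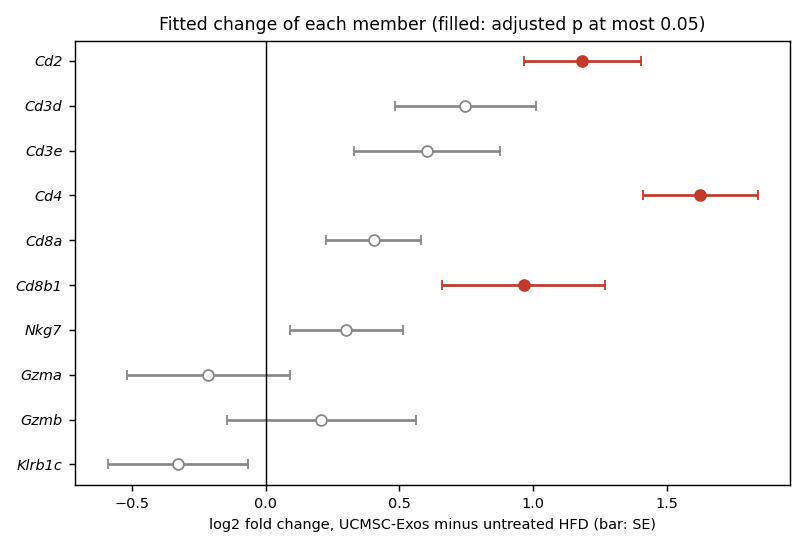
Fitted log2 fold change of each member, UCMSC-Exos minus untreated HFD, with bars for the SE; filled points passed an adjusted p of 0.05 in edgeR. Cd4 (1.62), Cd2 (1.18) and Cd8b1 (0.96) are filled, and Gzma (-0.21) and Klrb1c (-0.33) lie left of 0.

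Cd4, the helper co-receptor (chromosome 6, 124864692 to 124888221, minus strand, mm10), ranged from 0.580 through a median of 1.67 to 2.97 CPM in untreated HFD. In UCMSC-Exos it ranged from 4.31 through 5.13 to 6.79 CPM. Every treated library lay above every untreated one, a separation found in 0.493% of all genes tested. The means were 1.71 ± 0.64 CPM (SD, n = 9) and 5.28 ± 0.91 CPM (SD, n = 8), a 3.08-fold difference with an edgeR adjusted p of 7.39e-05. Leaving out any 1 library gave a log2 fold change of 1.51 to 1.76, with an edgeR adjusted p of at most 2.65e-04. UCMSC-Exos 9, at 4.40 CPM, stood within the treated range.

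Cd2, an adhesion receptor of T and NK cells that binds CD48 in the mouse (chromosome 3, 101275899 to 101287939, minus strand), ranged from 0.649 through 1.10 to 1.37 CPM in untreated HFD. The UCMSC-Exos range was 1.21 through 2.49 to 4.30 CPM. All treated libraries except UCMSC-Exos 5 lay above the highest untreated one, and UCMSC-Exos 9 was the highest of all. Cd2 passed with an edgeR adjusted p of 0.00138, and its log2 fold change stayed between 1.02 and 1.29 when any 1 library was left out.

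Cd3d and Cd3e encode the delta and epsilon chains of CD3, both on chromosome 9 (44981786 to 44987339, plus strand, and 44998740 to 45009627, minus strand). Cd3d ranged from 1.03 through 1.3 to 2.56 CPM in untreated HFD and from 0.620 through 2.56 to 3.50 CPM in UCMSC-Exos. Its lowest library of all, UCMSC-Exos 5, was a treated one, whereas 4 treated libraries lay above the untreated range. The log2 fold change of Cd3d was 0.75 ± 0.26 (SE; edgeR adjusted p = 0.0518). It passed when untreated HFD 2, UCMSC-Exos 5 or UCMSC-Exos 6 was left out, with edgeR adjusted p down to 0.00843.

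Cd3e ranged from 0.406 through 1.53 to 2.48 CPM in untreated HFD and from 1.55 through 2.2 to 3.53 CPM in UCMSC-Exos. The groups overlapped, and only UCMSC-Exos 8 and 9 lay above the untreated range. Its log2 fold change of 0.60 ± 0.27 did not pass (edgeR adjusted p = 0.120). Counting did not use strand, and Cd3e overlaps the gene models Gm48719 and Gm48720, which held 16 and 6 reads over all libraries.

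The reference promoters of these CD3 chains and of 2 cytotoxic genes are shown as the sequence in front of genes of each kind, the receptor and the granule. They come from RefSeq on GRCm38.p6 and run from 250 bases before to 50 after the start, read on the gene's strand. The start is that of RefSeq and can differ from the counted gene. The Gzmb window lies wholly upstream of the counted Gzmb, whose coordinates end at 56262260. A match was found for 7 of the 10 members (Cd3d, Cd3e, Cd8a, Nkg7, Gzma, Gzmb and Klrb1c), and Cd2, Cd4 and Cd8b1 are named only. Capitals mark AGGAAG (a core of ETS family factors), TGTGGT (RUNX) and TGACTCA (AP-1) on either strand; in these 4 windows no match overlapped another.
Cd3d, chr9:44981536-44981835, plus strand: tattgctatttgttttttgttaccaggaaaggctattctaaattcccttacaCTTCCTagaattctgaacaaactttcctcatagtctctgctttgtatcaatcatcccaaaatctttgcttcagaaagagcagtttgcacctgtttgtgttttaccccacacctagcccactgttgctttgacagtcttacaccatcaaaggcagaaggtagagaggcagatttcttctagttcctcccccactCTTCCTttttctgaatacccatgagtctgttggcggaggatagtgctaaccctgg
Cd3e, chr9:45009562-45009861, minus strand: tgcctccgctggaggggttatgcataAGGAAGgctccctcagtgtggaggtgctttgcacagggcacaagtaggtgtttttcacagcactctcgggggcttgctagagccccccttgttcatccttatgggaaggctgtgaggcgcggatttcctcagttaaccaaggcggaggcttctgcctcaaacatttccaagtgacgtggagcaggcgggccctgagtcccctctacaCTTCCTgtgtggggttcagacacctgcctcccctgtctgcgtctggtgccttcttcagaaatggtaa
Nkg7, chr7:43436888-43437187, plus strand: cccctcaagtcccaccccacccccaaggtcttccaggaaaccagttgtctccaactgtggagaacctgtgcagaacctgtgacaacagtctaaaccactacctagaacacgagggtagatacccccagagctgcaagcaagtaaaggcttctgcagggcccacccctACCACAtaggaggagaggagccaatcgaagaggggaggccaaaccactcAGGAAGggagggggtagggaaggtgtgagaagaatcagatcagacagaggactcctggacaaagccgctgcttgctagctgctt
Gzmb, chr14:56262285-56262584, minus strand: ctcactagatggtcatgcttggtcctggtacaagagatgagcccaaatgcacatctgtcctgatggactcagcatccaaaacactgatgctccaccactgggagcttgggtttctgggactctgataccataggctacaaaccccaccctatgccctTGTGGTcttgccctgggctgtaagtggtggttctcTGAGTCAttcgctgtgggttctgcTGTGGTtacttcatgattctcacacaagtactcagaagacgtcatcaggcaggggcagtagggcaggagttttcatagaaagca

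Both CD3 windows held AGGAAG at 2 places and neither of the other motifs. The Gzmb window held TGTGGT at 2 places and TGACTCA at 1, and the Nkg7 window held 1 match each of TGTGGT and AGGAAG. Over the 7 matched members, AGGAAG was found in 4, TGTGGT in 4 and TGACTCA in 1. Over all 32851 promoters of the same length the shares were 35.4%, 16.8% and 5.2%. A match of letters is a description of the sequence and not a site.

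Cd8a, the alpha chain of CD8 (chromosome 6, 71373427 to 71379173, plus strand), also occurs on some dendritic cells. It ranged from 3.60 through 5.22 to 7.24 CPM in untreated HFD and from 3.93 through 7.20 to 10.7 CPM in UCMSC-Exos. UCMSC-Exos 2, 5, 6 and 7 lay within the untreated range, and the other 4 lay above it. The log2 fold change was 0.40 ± 0.18 (edgeR adjusted p = 0.108), and without UCMSC-Exos 5 it passed narrowly at 0.0493.

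Cd8b1, the beta chain that is restricted to T cells with the alpha-beta dimer (chromosome 6, 71322788 to 71337494, plus strand), ranged from 1.18 through 1.62 to 2.22 CPM in untreated HFD. Treated libraries ranged from 1.2 through 2.73 to 6.82 CPM. UCMSC-Exos 2, 7, 8 and 9 lay above the untreated range, and the other 4 lay within it. The rise of Cd8b1 passed with an edgeR adjusted p of 0.0338. The call ended in 8 of the 17 fits that left out 1 library (untreated HFD 4, 7, 8 or 9, UCMSC-Exos 2, 7, 8 or 9), with log2 fold changes of 0.70 to 1.09 and an adjusted p of up to 0.0724 over all 17. Without untreated HFD 3 and 9 and UCMSC-Exos 9 together it was 0.64 (edgeR adjusted p = 0.0935), whereas Cd2 (1.07 ± 0.22, edgeR adjusted p = 8.79e-04) and Cd4 (1.51 ± 0.17, edgeR adjusted p = 5.63e-06) still passed. That fit called 6716 of 16035 genes.

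**Figure D2:**
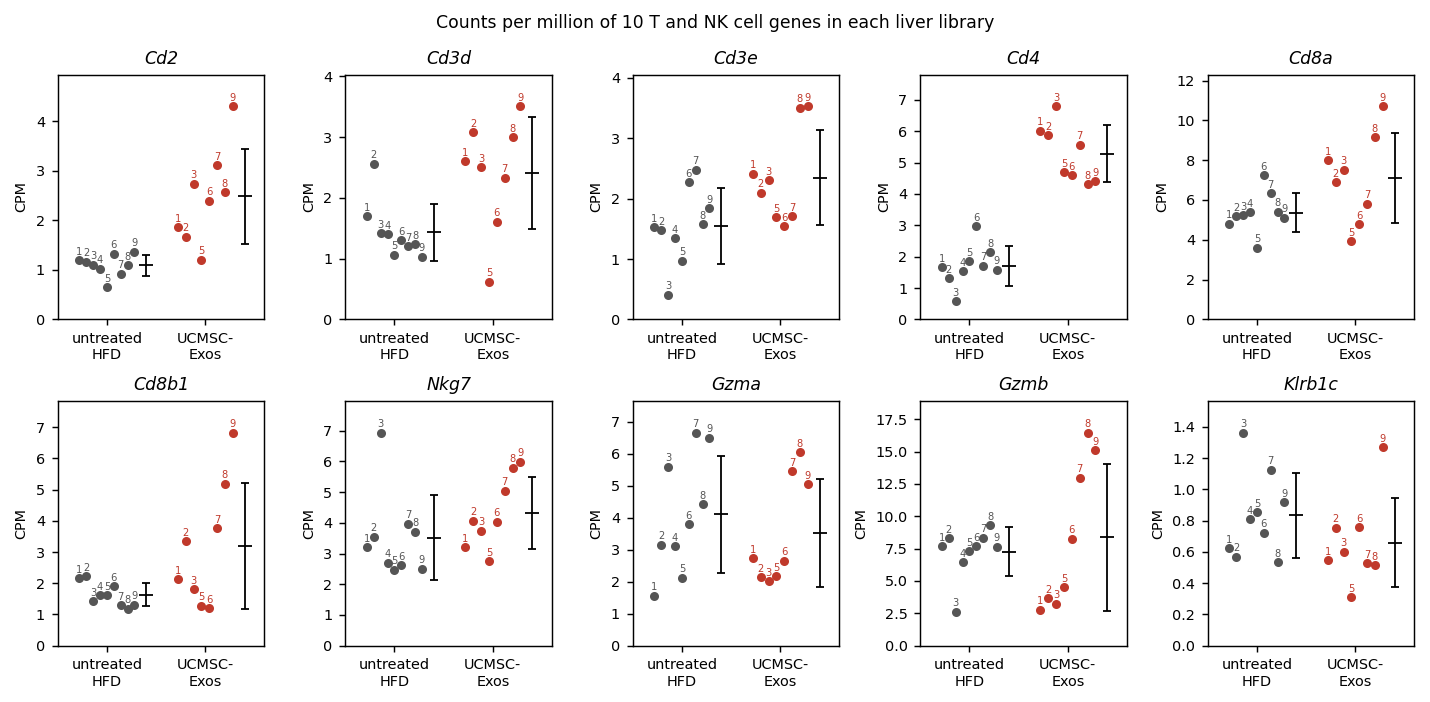
CPM of each member in every library, on a linear axis that starts at 0 in each panel; points are libraries, and lines mark the group mean with the SD. The Cd4 groups do not overlap (untreated HFD up to 2.97, UCMSC-Exos from 4.31), and Gzmb spreads from 2.76 to 16.5 in UCMSC-Exos.

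Nkg7, a granule membrane protein of NK and cytotoxic T cells (chromosome 7, 43437073 to 43438249, plus strand), ranged from 2.48 through 3.2 to 6.93 CPM in untreated HFD and from 2.76 through 4.05 to 6.00 CPM in UCMSC-Exos. The highest value of all came from untreated HFD 3, the library with the acinar genes; the other 8 untreated libraries lay at 3.97 CPM or lower. Over all libraries Nkg7 did not pass (0.30 ± 0.21, edgeR adjusted p = 0.317). Without untreated HFD 3 the log2 fold change was 0.49 and the adjusted p was 0.0471.

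Gzma and Gzmb encode serine proteases of the granules, granzyme A on chromosome 13 (113093825 to 113100981, minus strand) and granzyme B on chromosome 14 (56258838 to 56262260, minus strand). Gzma ranged from 1.56 through 3.80 to 6.65 CPM in untreated HFD and from 2.01 through 2.69 to 6.05 CPM in UCMSC-Exos, with a log2 fold change of -0.21 ± 0.31 (edgeR adjusted p = 0.646). Gzmb ranged from 2.64 through 7.67 to 9.32 CPM in untreated HFD and from 2.76 through 6.39 to 16.5 CPM in UCMSC-Exos. Its log2 fold change was 0.21 ± 0.35 (edgeR adjusted p = 0.703).

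The treated libraries differed more among themselves in Gzmb than the groups differed from each other. UCMSC-Exos 1, 2, 3 and 5 held 2.76, 3.67, 3.24 and 4.51 CPM, UCMSC-Exos 6 held 8.26, and UCMSC-Exos 7, 8 and 9 held 13, 16.5 and 15.1 CPM. The highest was 5.95 times the lowest. Untreated HFD 3, at 2.64 CPM, lay below all other untreated libraries, which ran from 6.45 CPM upwards. Gzma was also highest among treated libraries in UCMSC-Exos 7, 8 and 9, at 5.44, 6.05 and 5.06 CPM. Cd8b1 was highest in the same 3, at 3.76, 5.18 and 6.82 CPM, and Cd4 was not, at 5.57, 4.31 and 4.40 CPM. No label sets these libraries apart from the other treated ones.

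Klrb1c, the NK1.1 receptor that marks NK cells and NKT cells in this strain (chromosome 6, 128778485 to 128789215, minus strand), was the member with the fewest reads. It ranged from 0.535 through 0.809 to 1.36 CPM in untreated HFD and from 0.310 through 0.574 to 1.27 CPM in UCMSC-Exos. Treated libraries mostly lay low in the untreated range or below it, and UCMSC-Exos 9 was high. The log2 fold change was -0.33 ± 0.26 (edgeR adjusted p = 0.382), at 9 to 54 reads per library. Klrb1c belongs to a family of similar receptors, whose shared reads were not counted.

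Per kilobase of exon, the granule genes were the most abundant members in untreated HFD. Gzmb stood at 5.05 ± 1.33 CPM per kb, Gzma at 4.08 ± 1.82 and Nkg7 at 3.85 ± 1.53 (SD, n = 9), neighbours that do not differ beyond their spread. Cd8a (1.48 ± 0.28) and Cd8b1 (1.10 ± 0.26) followed, then Cd3d at 0.79, Cd2 at 0.63, Cd4 at 0.42, Cd3e at 0.38 and Klrb1c at 0.28 CPM per kb. In UCMSC-Exos, Cd4 was at 1.31 ± 0.22 CPM per kb (SD, n = 8), near Cd3d at 1.33 ± 0.51 and Cd2 at 1.43 ± 0.55.

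Ratios of reads within a library compare members with no scaling between libraries. The log2 ratio of Cd4 to Cd3e went from 0.18 ± 0.44 (SD, n = 9) to 1.21 ± 0.57 (SD, n = 8), a difference of 1.03 (exact permutation test over all 24310 splits, two-sided, p = 0.00177, adjusted over 6 ratios 0.00531). Of the 8 treated libraries, 6 lay above all untreated ones, at 1.31 to 1.69. UCMSC-Exos 8 and 9 lay within the untreated range at 0.30 and 0.32. Cd4 against Cd8a went from -1.73 ± 0.62 to -0.38 ± 0.53, a difference of 1.35 (exact permutation adjusted p = 0.00197), again with UCMSC-Exos 8 and 9 the lowest treated libraries at -1.08 and -1.28. Leaving out any 1 library kept the Cd4 to Cd3e difference between 0.94 and 1.16 and the Cd4 to Cd8a difference between 1.17 and 1.48. Without untreated HFD 3 and 9 and UCMSC-Exos 9 they were 1.14 and 1.28, each with an exact permutation adjusted p of 0.00699.

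The other 4 ratios did not pass. Cd8a to Cd3e was 1.91 ± 0.68 in untreated HFD and 1.59 ± 0.19 in UCMSC-Exos, with an exact permutation adjusted p of 0.279. Cd8b1 to Cd8a was -1.72 ± 0.44 and -1.34 ± 0.62 (exact permutation adjusted p = 0.279). Nkg7 to Cd3e was 1.25 ± 1.12 and 0.90 ± 0.38 (exact permutation adjusted p = 0.646), and the wide untreated spread came with the value of 4.05 in untreated HFD 3. Gzma to Gzmb was -0.90 ± 0.98 and -1.05 ± 0.55 (exact permutation adjusted p = 0.704), and its difference turned to 0.09 without untreated HFD 3.

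**Figure D3:**
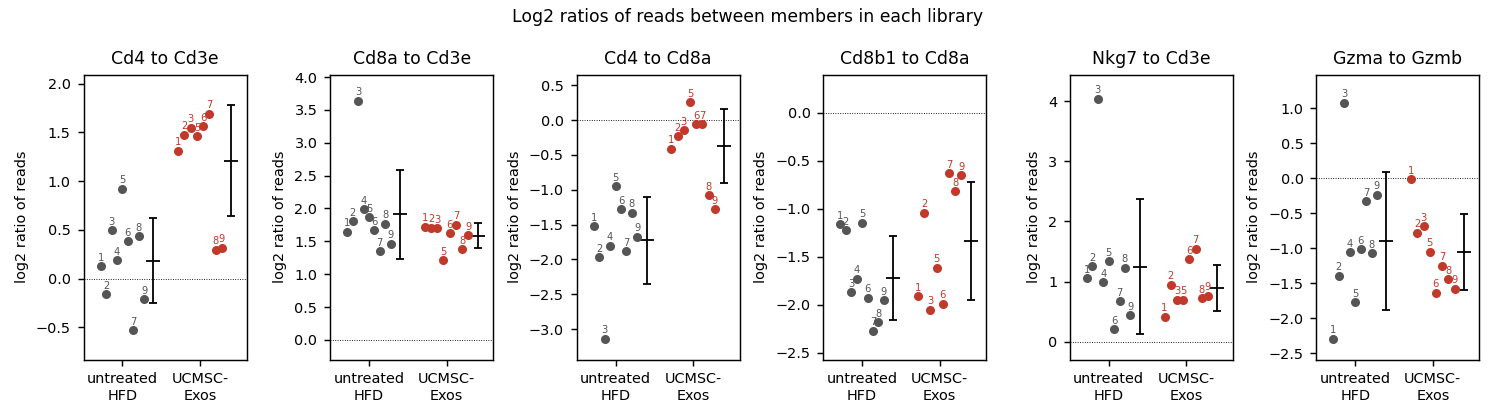
Log2 ratio of reads for 6 pairs of members in every library; points are libraries, and lines mark the group mean with the SD. Cd4 to Cd3e and Cd4 to Cd8a are higher in UCMSC-Exos (differences 1.03 and 1.35), and untreated HFD 3 stands apart in Cd8a to Cd3e at 3.64.

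Genes of the T cell receptor complex and its first signalling steps were followed beside the surface members. Of 17 listed genes, all tested, 6 rose (Zap70, Trbc2, Cd28, Cd247, Cd5 and Lck), beside 9.73% of all genes that passed as higher. Of the 17, 15 had a positive sign, and the median log2 fold change was 0.59. Zap70, the kinase recruited to the phosphorylated receptor, went from 7.20 ± 1.27 to 12.9 ± 3.31 CPM (edgeR adjusted p = 9.10e-04). Cd247, the zeta chain, rose by 1.27 ± 0.31 and Cd28, the main costimulatory receptor, by 1.26 ± 0.30. Trbc2, a constant region of the receptor beta chain, rose by 0.81 ± 0.19. Over leave-one-out fits the count ran from 6 to 11 genes, 11 without UCMSC-Exos 5, in which the list lay below every untreated library (mean log2 difference from untreated of -0.44, untreated -0.23 to 0.27). In UCMSC-Exos 9 the list stood at 1.25 and in the other 6 treated libraries up to 0.91.

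Transcription factors of T and NK cells split, with 2 of 12 tested higher and 3 lower, beside 9.73% and 10.4% of all genes. Lef1, a factor of naive and early T cells, rose by 1.49 ± 0.42 from 0.278 to 0.782 CPM, and Zbtb7b, which directs the CD4 lineage but is also expressed in other tissues, rose by 0.24 ± 0.08. Id2, needed for NK cells and also expressed in other cell types, fell by 0.42 on the log2 scale, and Ikzf2 (Helios) fell by 1.22; Tox also fell. The calls of Zbtb7b and Ikzf2 each ended in 12 of 17 leave-one-out fits, with edgeR adjusted p up to 0.0951 and 0.0739. That of Zbtb7b held without untreated HFD 3, 5 or 8 or UCMSC-Exos 8 or 9, and that of Ikzf2 without untreated HFD 3, 4, 5 or 8 or UCMSC-Exos 9. Without scaling factors Zbtb7b stood at 0.06. Of 5 tested genes of gamma delta and innate-like T cells, only Zbtb16 (PLZF) passed, beside 9.73% of all genes that passed as higher. It rose by 1.78 ± 0.39, from 20.8 ± 15.4 to 71.6 ± 8.94 CPM, and hepatocytes can express it too. The list median was -0.18, with 2 genes positive and 3 negative, and Il17a held no read in any library.

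Among receptors for activation, Icos, a costimulatory receptor of activated and helper T cells, rose by 1.2 ± 0.22 (edgeR adjusted p = 0.00139), from 1.79 ± 0.62 to 4.12 ± 1.18 CPM. Havcr2 (TIM-3), found on exhausted T cells and on myeloid cells, fell by 0.97 on the log2 scale; its call ended in 12 of 17 leave-one-out fits (all but those without untreated HFD 3, 5, 8 or 9 or UCMSC-Exos 9), with edgeR adjusted p up to 0.0901. These were the 2 that passed of 13 tested, a share no larger than the 20.2% of all genes that passed in either direction.

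Cytotoxic effectors and NK receptors were counted beside the 10.4% of all genes that passed as lower. Of 9 tested genes of the effector list, 3 fell and 4 had a positive sign. Tnfsf10 (TRAIL), a death ligand, went from 25.8 ± 3.60 to 14.8 ± 3.03 CPM (edgeR adjusted p = 1.97e-04), Serpinb9, an inhibitor of granzyme B, fell by 0.47 on the log2 scale, and Xcl1, a chemokine of NK and CD8 T cells, fell by 1.44. In untreated HFD, Tnfsf10 and Serpinb9 (mean 29.6 CPM) stood far above Xcl1 (0.628 CPM) and Cd3e (1.54 CPM). Which cells gave their reads was not tested. Of 15 tested NK receptors, 2 fell: Cd244a (2B4) by 1.08 on the log2 scale and Klrk1 (NKG2D) by 0.48. This count is near the share of all genes, and 7 of the 15 had a positive sign. The Klrk1 call ended in 7 leave-one-out fits (without untreated HFD 2, 8 or 9 or UCMSC-Exos 1, 2, 3 or 5) and the Xcl1 call in 3 (without UCMSC-Exos 2, 3 or 5), with edgeR adjusted p up to 0.0691 and 0.0523. The list medians were -0.05 and -0.14.

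Of 13 tested ligands and cytokines that act on lymphocytes, 6 fell (Cxcl16, Il7, Il15, Icosl, Cd274 and Cxcl10), beside 10.4% of all genes that passed as lower. The other 7 did not pass, 3 of the 13 had a positive sign, and the list median was -0.41 on the log2 scale. Cxcl16, the ligand of CXCR6, went from 33.9 ± 7.14 to 18.4 ± 6.68 CPM. Il15, which sustains NK and memory CD8 T cells, went from 4.32 ± 1.02 to 2.37 ± 0.68 CPM, and Il7, which sustains naive T cells, from 2.14 ± 0.56 to 1.00 ± 0.32 CPM. Icosl, the ligand of ICOS, fell by 0.80 on the log2 scale. Of 15 tested homing and residency genes, 2 fell, a count near the 10.4% of all genes that passed as lower. Of the 15, 7 had a positive sign, and the list median was -0.07. Among those that fell, Cxcr4, the receptor of CXCL12, did so by 0.78 on the log2 scale. The Cxcr4 call ended in 5 leave-one-out fits (without untreated HFD 1 or 6, or UCMSC-Exos 5, 7 or 8), with edgeR adjusted p up to 0.0590.

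**Figure D4:**
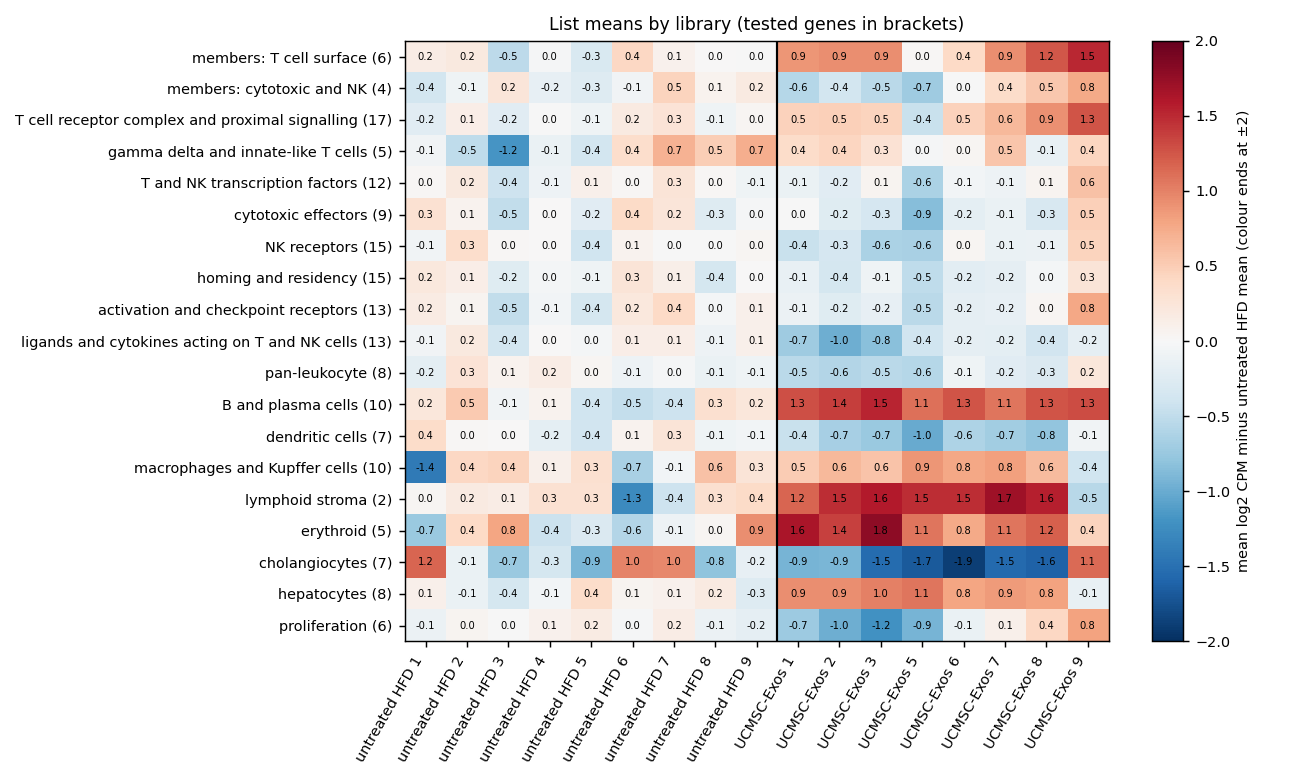
Mean log2 CPM of each list's tested genes in every library, minus the mean of untreated HFD; rows are lists, columns are libraries and colour gives the difference. The T cell surface members run from 0.02 to 1.24 in UCMSC-Exos libraries 1 to 8 and reach 1.51 in UCMSC-Exos 9, and the hepatocyte list is at -0.14 there.

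Markers of other cells moved too, and their part in the results above was not tested. Their counts, here and below, stand beside 9.73% of all genes that passed as higher and 10.4% that passed as lower. All 8 hepatocyte genes rose (median 0.77), with summed levels of 33234 to 52571 CPM in untreated HFD and 40099 to 75573 CPM in UCMSC-Exos, and UCMSC-Exos 9 lay at -0.14 against 0.79 to 1.07 in the other treated libraries. Of 8 pan-leukocyte genes 3 fell, among them Ptprc (CD45), from 97.6 ± 12.6 to 72.4 ± 17.3 CPM. The call of another of them ended in 11 of 17 leave-one-out fits, with edgeR adjusted p up to 0.0836. Summed leukocyte markers ran from 493.2 to 674 CPM in untreated HFD and from 381 to 646 CPM in UCMSC-Exos. In the same comparison 3 T cell surface genes rose.

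Of 10 tested B and plasma cell genes, 3 rose, with Igha at 4.44 ± 0.24, and their summed level went from 19.3 to 39.2 CPM up to 84.2 to 151 CPM. Of 7 tested dendritic cell genes, Flt3, Xcr1 and Itgax fell; the Itgax call held only without untreated HFD 3, 5, 8 or 9 or UCMSC-Exos 9 among the leave-one-out fits (adjusted p up to 0.0915 otherwise). Summed dendritic levels ran from 52.8 to 93.9 CPM in untreated HFD and from 28.6 to 85.3 CPM in UCMSC-Exos, the highest in UCMSC-Exos 9. Of macrophage and Kupffer cell genes, Timd4 and Marco rose and C1qa fell; without UCMSC-Exos 3 Marco did not pass (edgeR adjusted p = 0.0501). Cxcl13, a chemokine of lymphoid stroma, rose by 2.03 ± 0.42. Of the 8 treated libraries, 7 lay above the untreated range of Cxcl13, and UCMSC-Exos 9 was the lowest library of all at 0.094 CPM. Ccl21a and Glycam1 held no read in any library. Of thymocyte genes, Dntt, the only one tested, held 19 to 130 reads per library and fell, with a log2 fold change of -0.81 (edgeR adjusted p = 0.0343), whereas Rag1 and Rag2 held no read in any library. The Dntt call ended in 8 leave-one-out fits (without untreated HFD 3, 6 or 7 or UCMSC-Exos 1, 3, 5, 7 or 8), with edgeR adjusted p up to 0.0654. Proliferation genes did not pass over all libraries (6 tested). Without UCMSC-Exos 9, at least 1 of them passed as lower, at a log2 fold change of -0.74 (edgeR adjusted p = 0.00876). That fit called 3367 of 16326 genes lower. The proliferation list lay at -1.21 to -0.73 in UCMSC-Exos 1, 2, 3 and 5, below the untreated range of -0.18 to 0.16. It lay at -0.14, 0.11 and 0.41 in UCMSC-Exos 6, 7 and 8 and was highest in UCMSC-Exos 9 at 0.81.

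Of 5 tested erythroid genes, which mark blood in the tissue, 3 rose, with Alas2, the first enzyme of erythroid haem synthesis, at 1.06 ± 0.14 (edgeR adjusted p = 6.13e-05) and Hba-a1, an alpha globin, at 1.31 ± 0.30. The remaining erythroid call ended in 10 of 17 leave-one-out fits, with edgeR adjusted p up to 0.0905. The list median was 0.95, and summed levels ran from 71.5 to 199.5 CPM in untreated HFD and from 141 to 346 CPM in UCMSC-Exos. All 7 cholangiocyte genes had a negative sign. As a mean log2 difference from untreated HFD, the list lay at -0.92 to 1.16 in untreated libraries, at -1.89 to -0.91 in UCMSC-Exos 1 to 8 and at 1.13 in UCMSC-Exos 9.

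Members were followed across libraries by Pearson correlation of log2 CPM over 17 libraries, as a description; libraries share group and composition. Cd3d moved most with Cd8b1 (0.80, and 0.73 after group means were removed) and with Cd8a (0.75 and 0.68). Cd4 correlated with Cd3e at 0.69, and at 0.62 after group means were removed. Untreated HFD 3, the library with the acinar genes, held the lowest value of both genes (0.406 CPM of Cd3e and 0.580 CPM of Cd4). The correlation of Cd4 with Cd2 was 0.69, and -0.03 after group means were removed. With Nkg7, Cd4 correlated at 0.04, and at -0.66 within groups. Untreated HFD 3 held the lowest Cd4 and also the highest Nkg7 of all libraries, at 6.93 CPM. Correlations between members were not computed without that library, so how far the values of Cd4 with Cd3e and Nkg7 rest on it was not tested.

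The genes most like Cd4 over the 17 libraries were Herpud1 (0.95), Zfand6 (0.94), Ell2 (0.94), Slc17a2 (0.94) and Hsd3b2 (0.93). Without untreated HFD 3 and 9 and UCMSC-Exos 9 they were Cep85l, Hsd3b2 and Cth at 0.97, Zfand6 at 0.96 and Ppp1r9a at 0.95. For Cd3e they were Zfhx3 (0.91), Nedd4l (0.89), Cyp2j9 (0.89), Frmd4b (0.88) and Mrtfb (0.88), and without those 3 libraries Map3k6 (0.92), Baiap2 and Cyp2j9 (0.86), and AA986860 and Clip4 (0.83). For Nkg7 they were Gm40466 (0.86), Fam107b (0.85), Lat (0.83), Gmfg (0.79) and Spn (0.78), and without those 3 libraries Gm47451 and Cd96 (0.89), Miip and Mrtfb (0.86), and Ighg1 (0.83). Lat, an adaptor of the T cell receptor, and Cd96, a receptor of T and NK cells, are lymphocyte genes; Hsd3b2 and Cth are enzymes and no lymphocyte marker.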

How the data were processed

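Per the file headers, the authors' deposited counts are whole reads per gene made with featureCounts 2.1.1 over exons of GENCODE vM25, in paired mode, without strand and without multi-mapping reads; both mates were counted. Per the submitters' processing notes, the build was mm10 and the tools were Subread 2.0.2 with featureCounts, HISAT2 2.2.1 and fastp 1.3.3. The deposited counts were not normalized.

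Columns were matched to samples by library name; 1 per-sample column matched no sample and was not used. Of 55401 gene IDs, 55141 matched a symbol. In R 4.3.3, edgeR 4.0.16 was run with filterByExpr (minimum count 10), TMM and the robust quasi-likelihood F test, two-sided, with Benjamini-Hochberg adjustment over 16238 genes and a threshold of 0.05; genes varied with a biological coefficient of 0.29. SE is the fold change divided by the root of F, and log2 CPM used a prior count of 2. Ratios had 0.5 added to counts and were compared by exact permutation over libraries. Labels give replicate numbers and no animal identity, so p-values measure the spread between these samples, which may be technical. Same-numbered libraries of the groups correlated at -0.17 to 0.24, so numbers were not taken as pairs. The closest pair, UCMSC-Exos 2 and 3, differed by 3.78 times sampling noise. No label gives a batch.

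Named genes were all members, in each list up to 4 passing genes of smallest p (2 where none passed), and the 5 most similar genes for Cd3e, Cd4 and Nkg7; Cd5, Lck, Tox, Cd274 and Cxcl10 were named after their values were seen, as were genes named for holding no read. Of the genes that the rule names, 2 are not reported here. The members and lists were chosen with earlier results of these data known. Alternatives were other scaling (RLE, upper quartile, none), filters, a replicate block, DESeq2 1.42.0, limma 3.58.1 voom, surrogate variables (sva 3.50.0) and leaving out libraries. The steps were tested on simulated counts.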

Additional observations from a re-analysis of the deposited data

Results flagged for a closer look

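Among 32 groups of values of members and ratios, 7 held a library whose gap to the next was large for the range of its group; chance does so in about 1 in 20 groups. Untreated HFD 3 gave 5 of them: Nkg7 was highest there at 6.93 CPM and Gzmb lowest at 2.64 CPM. Its log2 ratios were 3.64 for Cd8a to Cd3e (highest), -3.14 for Cd4 to Cd8a (lowest) and 4.05 for Nkg7 to Cd3e (highest). Untreated HFD 2 had the highest Cd3d of its group at 2.56 CPM. UCMSC-Exos 9 had the highest Klrb1c of the treated libraries at 1.27 CPM. Untreated HFD 3 also holds the acinar genes given above, whose part in these values was not tested.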

How the results depend on the processing

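Cd2 and Cd4 passed as higher in every alternative fit, and the differences of Cd4 to Cd3e and Cd4 to Cd8a kept their call in all of theirs. The count of all genes was 7711 with limma voom, 1549 with surrogate variables and 6716 without untreated HFD 3 and 9 and UCMSC-Exos 9; leaving out 1 library gave 2005 (UCMSC-Exos 3), 2086 (UCMSC-Exos 2) to 5823 (UCMSC-Exos 9). Members passing as higher were 7 with surrogate variables (Cd2, Cd3d, Cd3e, Cd4, Cd8a, Cd8b1 and Nkg7) and 2 to 5 when 1 library was left out. Fits with the replicate block, for which the numbers give no pairing, called 3029 genes and 2 members; Cd8b1 stood at 0.75 (edgeR adjusted p = 0.167) and lost its call. Cd8b1 also lost it with voom (0.60, limma adjusted p = 0.0650) and without a scaling factor (0.85, edgeR adjusted p = 0.0745), an alternative chosen after seeing the data. That setting called 737 genes higher and 2961 lower, 19.9% higher against 48.3% with TMM, and moved the median of all genes from -0.02 to -0.19. Signs reversed, with no call on either side except where Mylpf had passed: Gzmb was -0.039 (block), -0.42 (voom) and -0.085 (without the 3 libraries), Gzma 0.23 and Klrb1c 0.086 (surrogate variables), and Fabp2 -0.057 (no scaling factor). Cela1 was 0.11 (DESeq2), 0.029 (surrogate variables), 0.035 (without untreated HFD 3 and 9) and 0.058 (without the 3 libraries); Mylpf was 0.29 (DESeq2), 0.35 and 0.39. With 1 library out, Gzmb ran from -0.0039 (UCMSC-Exos 8) to 0.34, Cela1 from -3.07 to 0.11, Mylpf from -5.95 to 0.29 and Cfd from -0.90 to 0.13. Gzma to Gzmb was 0.22 without untreated HFD 3 and 9, 0.29 without the 3 libraries and -0.33 to 0.089 with 1 out. The cause was not tested.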
